A study of Drosophila melanogaster with 12 samples.

Results

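The genes described here are 8 components of 2 insect wound responses, melanization and clotting of the haemolymph: PPO1, PPO2, MP1, Hayan, Spn27A, Hml, fon and Tg. They were taken by FlyBase symbol, and all 8 had a row among the 13515 genes of the deposited table and passed the filter on low values. RNA came from heads of Drosophila melanogaster at day 10 of adulthood. In tau flies (Elav-Gal4/+;UAS-tauR406W/+) the neuronal driver Elav-Gal4 directs expression of human tau with the R406W mutation, and control flies (Elav-Gal4/+) carried the driver without the tau transgene. Each genotype had 6 libraries, lettered A to F, and a library was made from 18 heads of males and females together. Separate pools of flies are described as independent by the submitters.

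Melanization is a proteolytic cascade. Clip-domain serine proteases such as Hayan and MP1 are activated at a wound or on contact with microbes, the serpin Spn27A restrains the cascade, and its end products are active phenoloxidases, cut from the prophenoloxidases PPO1 and PPO2, which oxidise catechols to melanin. Clotting traps haemolymph in a fibrous mesh made of secreted proteins that include Hemolectin (Hml) and Fondue (fon), and is cross-linked by transglutaminase (Tg). The phenoloxidases are stored by crystal cells, Hml is made by plasmatocytes, the phagocytic blood cells, and many of the proteases, serpins and clot proteins come from the fat body. A fly head contains haemolymph, blood cells and fat body beside brain and eyes.

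The phenoloxidase genes PPO1 and PPO2 and the protease gene MP1 fell in tau heads, to 44.1%, 45.2% and 56.3% of the control level. None of the 8 genes rose. Hayan, Spn27A, Hml, fon and Tg did not pass the test. Values are the authors' normalised gene counts, tested with limma on log2(value + 1) over 10845 genes and called at a Benjamini-Hochberg adjusted p under 0.05. Over all tested genes 5.23% were called, 3.13% lower and 2.10% higher in tau, against 3 of the 8 lower and 0 higher. The median log2 fold change of the 8 genes was −0.41 and that of all tested genes 0.008. The lowest values of the 8 genes lay far above the value of 1 read pair, which was 0.642 to 0.959 in the tau libraries and 0.842 to 1.503 in the controls. In RNA from whole heads, fewer cells of a type and less RNA per cell cannot be told apart.

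**Figure D1:**
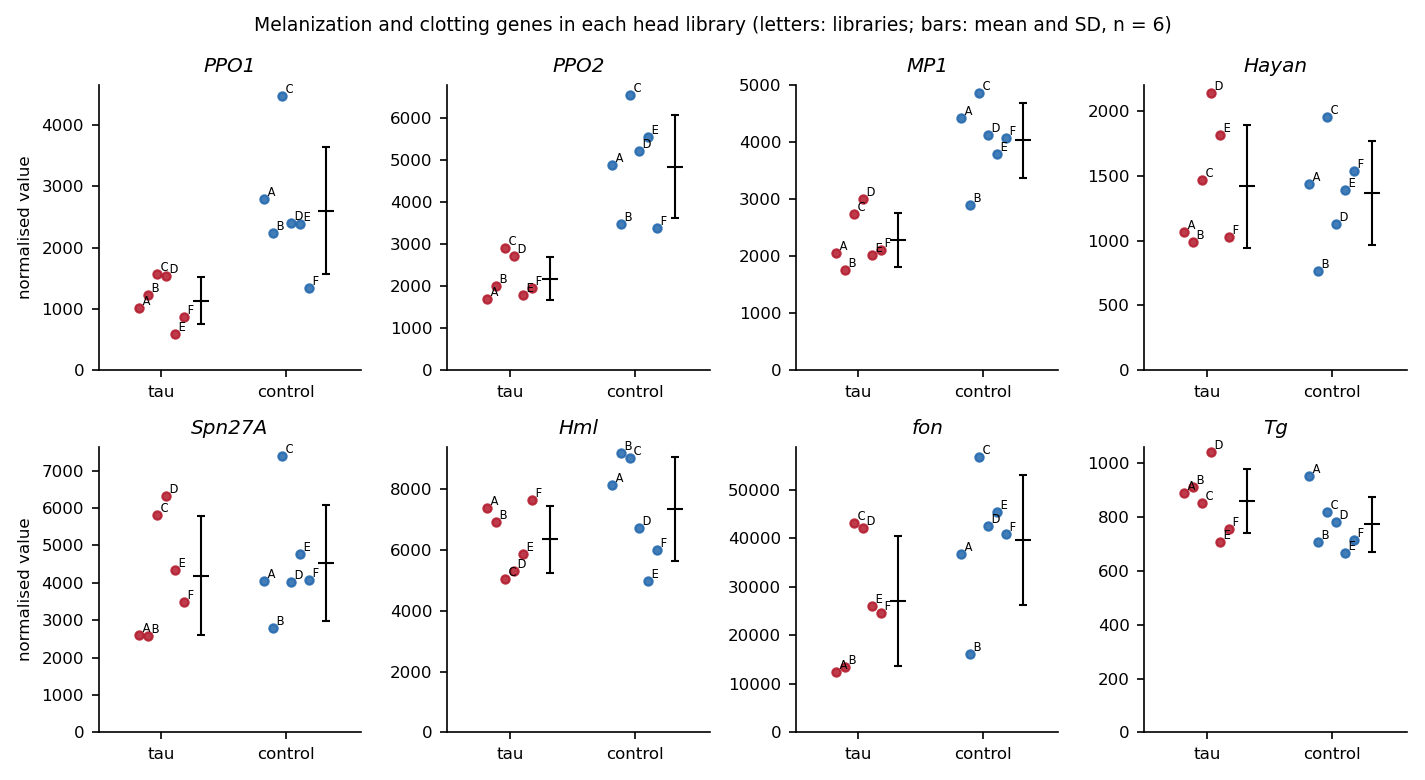
Normalised value (vertical axis, from 0) of each of the 8 genes in the 6 tau libraries (left, red) and the 6 control libraries (right, blue). Letters mark libraries and bars give the mean and SD (n = 6); all tau points lie below all control points for PPO2, while for PPO1 and MP1 the groups overlap slightly.

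PPO2 (FBgn0033367; dm6, 2R, 9042261 to 9044709, minus strand) encodes the prophenoloxidase that crystal cells hold in their crystals. Its normalised values in tau libraries A to F were 1682, 1993, 2896, 2725, 1784 and 1963, against 4883, 3483, 6553, 5206, 5555 and 3381 in control libraries A to F. Every tau library lay below every control library. Groups that did not overlap were found for 3.37% of tested genes, 1.80% with tau lower, and PPO2 was the only such gene of the 8. The means were 2174 ± 509 in tau and 4844 ± 1229 in control heads (SD, n = 6 each), a log2 fold change of −1.15 ± 0.17 (SE; limma adjusted p = 0.00114). It remained below the threshold without any single library (adjusted p from 0.000682 to 0.00403).

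PPO1 (FBgn0283437; 2R, 17887220 to 17889973, minus strand) encodes the prophenoloxidase that crystal cells release into the haemolymph. It had 1011, 1232, 1578, 1540, 598 and 867 in tau libraries A to F, against 2791, 2235, 4471, 2403, 2388 and 1347 in control libraries A to F. The groups met only at control F, the lowest control, which lay below tau C and tau D. Means were 1138 ± 386 in tau and 2606 ± 1032 in controls (SD, n = 6 each), and the log2 fold change was −1.18 ± 0.26 (SE; limma adjusted p = 0.0139). The call was lost without the variance trend (limma adjusted p = 0.0545). It was also lost when the mean log2 value of the yolk protein genes, markers of female fat body, entered the fit (log2 fold change −0.97, limma adjusted p = 0.201).

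MP1 (FBgn0027930; 3R, 4307908 to 4309835, plus strand) encodes melanization protease 1, a clip-domain serine protease that acts ahead of the phenoloxidases. Values in tau libraries A to F were 2051, 1763, 2731, 3008, 2019 and 2110, and in control libraries A to F 4421, 2903, 4853, 4130, 3795 and 4072. Only control B reached into the tau range, below tau D. MP1 averaged 2280 ± 480 in tau and 4029 ± 658 in control heads (SD, n = 6 each), with a log2 fold change of −0.83 ± 0.14 (SE; limma adjusted p = 0.00248). All 1525 bases of its exons lie within exons of Vps24 on the other strand, and the sources used here do not say whether quantification used strand, although the libraries were stranded. Vps24, which encodes a subunit of the endosomal sorting complex ESCRT-III, had 1520 to 1965 in tau and 1716 to 2002 in control libraries (log2 fold change −0.08, limma adjusted p = 0.684). Reads of the 2 genes may therefore be partly exchanged.

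Hayan (FBgn0030925; X, 18479983 to 18483772, minus strand) encodes the clip-domain protease that cleaves PPO1. Its values were 1070, 993, 1467, 2138, 1818 and 1029 in tau libraries A to F and 1439, 763, 1952, 1130, 1389 and 1540 in control libraries A to F, so that the groups covered nearly the same range. The log2 fold change was 0.04 ± 0.22 (SE; limma adjusted p = 0.955), with a 95% interval from −0.43 to 0.52. An antisense RNA, not analysed here, overlaps 36.2% of its exon bases.

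Spn27A (FBgn0028990; 2L, 6671065 to 6673347, minus strand) encodes the serpin that limits phenoloxidase activation. Tau libraries A to F had 2610, 2577, 5820, 6307, 4351 and 3487, against 4059, 2781, 7396, 4034, 4778 and 4063 in control libraries A to F. Tau A and tau B were the lowest of the 12, just below control B, and of the controls only control C exceeded tau C and tau D. The log2 fold change was −0.13 ± 0.24 (SE; limma adjusted p = 0.846), with a 95% interval from −0.65 to 0.38. A fall as large as that of PPO2 lies outside the intervals of both Hayan and Spn27A.

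Hml (FBgn0029167; 3L, 13846054 to 13860001, plus strand) encodes Hemolectin, a large secreted protein of plasmatocytes and a main component of the clot. It had 7362, 6899, 5055, 5292, 5851 and 7620 in tau libraries A to F and 8128, 9174, 9016, 6701, 4974 and 5979 in control libraries A to F. Controls A, B and C stood above all tau libraries, but control E was the lowest of the 12. The log2 fold change was −0.19 ± 0.15 (SE; limma adjusted p = 0.59; 95% interval from −0.52 to 0.14).

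fon (FBgn0032773; 2L, 19383138 to 19386205, minus strand) encodes Fondue, a clot protein that the fat body secretes. Its values were 12414, 13411, 43242, 42148, 26043 and 24624 in tau libraries A to F, against 36708, 16074, 56652, 42513, 45428 and 40796 in control libraries A to F. The spread within a group was wide, 3.48-fold between the lowest and the highest tau library and 3.52-fold in controls. The log2 fold change of −0.63 ± 0.33 (SE) did not pass the test (limma adjusted p = 0.355), and its 95% interval ran from −1.34 to 0.08. With the library letter as a block it passed narrowly (limma adjusted p = 0.0461), though same-letter libraries did not pair.

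Tg (FBgn0031975; 2L, 8011405 to 8026898, plus strand) encodes the transglutaminase that cross-links clot proteins. It varied least, with 888, 913, 851, 1042, 708 and 754 in tau libraries A to F and 951, 706, 817, 783, 665 and 714 in control libraries A to F. The groups overlapped over most of their range. The log2 fold change was 0.15 ± 0.12 (SE; limma adjusted p = 0.553; 95% interval from −0.09 to 0.40).

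Per kb of exon, fon was the most abundant of the 8 in both genotypes. It had 11854 ± 5886 normalised counts per kb in tau and 17441 ± 5883 in control heads (SD, n = 6 each), and ranked above 98.6% and 99.0% of tested genes. In tau heads the order below it was Spn27A (1836 ± 700 per kb), MP1 (1495 ± 314), PPO2 (953 ± 223), Hayan (589 ± 198), Hml (540 ± 93.1), PPO1 (487 ± 165) and Tg (275 ± 38.1). In control heads it was MP1 (2642 ± 432 per kb), PPO2 (2124 ± 539), Spn27A (1979 ± 679), PPO1 (1115 ± 441), Hml (623 ± 146), Hayan (569 ± 166) and Tg (247 ± 33.0). PPO1 thus stood above only Tg in tau heads, and above Hml, Hayan and Tg in control heads. The range of fon lay above that of the next gene in both genotypes, and that of Tg lay below Hayan in control heads. All other neighbours in these orders had overlapping ranges.

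**Figure D2:**
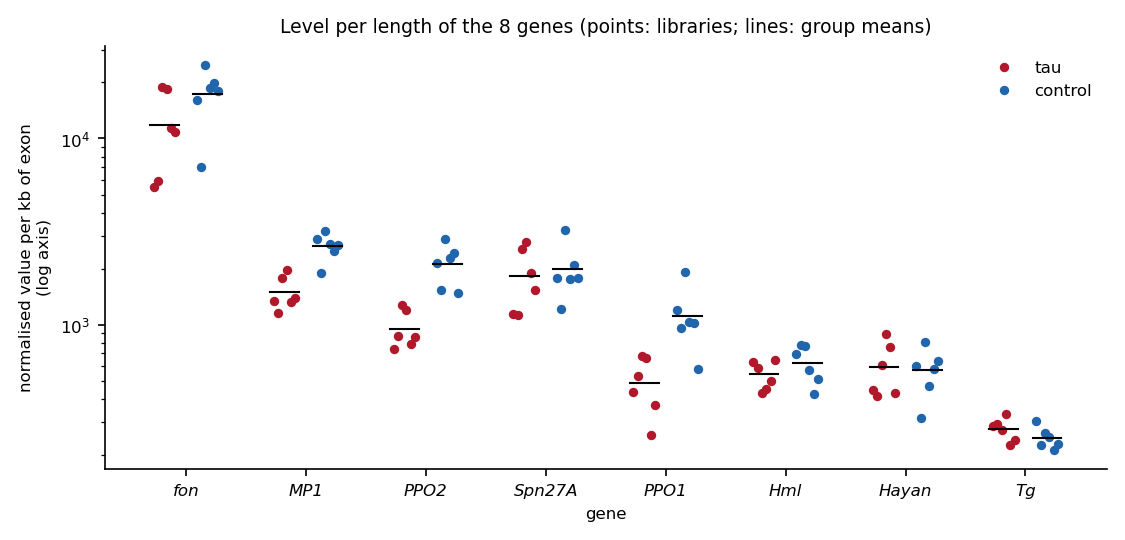
Normalised value per kb of exon (log axis) of the 8 genes, ordered by the control mean, in tau (red, left of each pair) and control (blue) libraries; lines are group means. fon lies above the other 7 genes in both genotypes, at means of 11854 in tau and 17441 in control heads, and Tg has the lowest means, 275 and 247.

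Ratios inside a library ask whether a pair of genes changed unequally, whatever the scale of the library. The log2 ratio was compared between genotypes for all 28 pairs with an exact two-sided permutation test over the 924 assignments of libraries, in which the smallest possible p is 0.00216, and adjusted over the 28 pairs. Unadjusted p-values were 0.00216, 0.00866 and 0.0173 where the adjusted ones below are 0.0101, 0.0269 and 0.0485. These comparisons were added after the values had been seen. Of the 28 pairs, 10 had an adjusted p under 0.05, and each of the 10 sets a gene that fell against a gene that was not called. The ratios use the same values as the limma calls, so these 10 largely restate those calls and are no separate support. How often other pairs of a called and an uncalled gene pass was not tested.

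PPO2 fell relative to Hayan by 1.19 on the log2 scale (exact permutation adjusted p = 0.0101). The geometric mean of the ratio PPO2/Hayan was 1.57 in tau and 3.58 in control heads, without overlap. MP1 fell relative to Hayan by 0.87 (exact permutation adjusted p = 0.0101), with ratios of 1.65 in tau and 3.02 in control heads. Relative to the serpin Spn27A, PPO2 fell by 1.01 and MP1 by 0.69 (exact permutation adjusted p = 0.0101 and 0.0269). PPO1 fell by 1.23 relative to Hayan and by 1.05 relative to Spn27A (exact permutation adjusted p = 0.0269 each). Against Tg, the differences were −1.33 for PPO1, −1.30 for PPO2 and −0.98 for MP1 (exact permutation adjusted p = 0.0101 each).

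PPO2 also fell against Hml, by 0.96 (exact permutation adjusted p = 0.0485), but this call was lost without any single library other than control B, tau C or tau D (adjusted p up to 0.0909). Leaving out tau E or control A, control D or control E ended the calls of MP1/Spn27A, PPO1/Hayan and PPO1/Spn27A, and leaving out control C ended those of the last pair of ratios (adjusted p up to 0.0606). MP1/Spn27A and PPO2/Hml were also lost when tau B and controls E and F were left out together (adjusted p = 0.0808 and 0.153). PPO1 and PPO2 kept nearly the same ratio, 0.507 in tau and 0.52 in control heads (log2 difference −0.04, exact permutation adjusted p = 0.882). The log2 ratio Hayan/Spn27A differed by 0.18 (exact permutation adjusted p = 0.332), and PPO2/MP1 by −0.32 (exact permutation adjusted p = 0.0929).

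**Figure D3:**
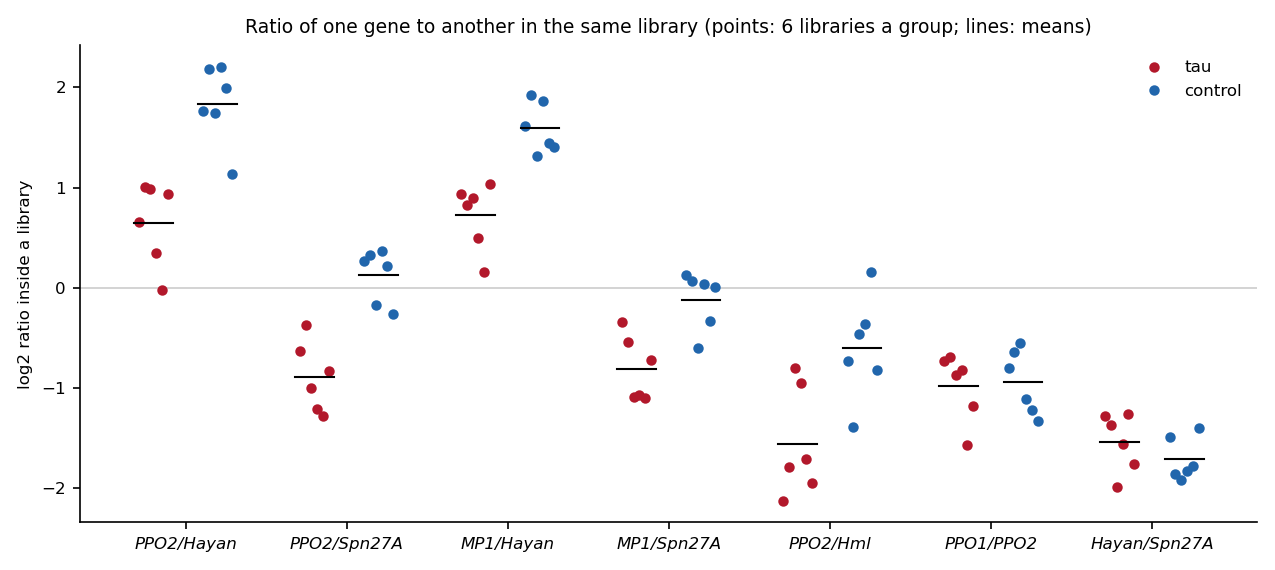
Log2 ratio of a pair of genes inside a library (vertical axis) for 7 of the 28 pairs, in the 6 tau libraries (red, left of each pair) and the 6 control libraries (blue); lines are means. The groups are apart for PPO2/Hayan (means 0.65 in tau and 1.84 in control libraries), PPO2/Spn27A (−0.89 and 0.12) and MP1/Hayan, and share their range for PPO1/PPO2 (−0.98 and −0.94).

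Within a genotype some of the 8 genes varied together. Deviations of the log2 values from the group means were correlated across the 12 libraries for all 28 pairs, with permutations inside genotypes and adjustment over the 28 pairs. No pair with Hml or Tg had a permutation adjusted p under 0.05. fon and Spn27A varied most closely together (Pearson r = 0.936, permutation p = 0.00034, adjusted 0.00952; Spearman rho = 0.902, permutation p = 0.00028, adjusted 0.00784). Their r was 0.98 within tau, 0.87 within control and 0.928 without the 2 libraries farthest from the median of fon. Tau A and tau B had low values of both genes and tau C and tau D high values, and among controls library B was low and library C high. Hayan and MP1 varied with them, with r = 0.867 for Hayan and Spn27A (permutation p = 0.00183, adjusted p = 0.0115; rho = 0.881, adjusted 0.0138) and 0.878 for fon and MP1 (permutation p = 0.00146, adjusted p = 0.0115; rho = 0.811, adjusted 0.0314). Without the 2 farthest libraries these were 0.8 and 0.876.

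PPO1 and PPO2 varied together (r = 0.814, permutation p = 0.00205, adjusted p = 0.0115; rho = 0.874, adjusted 0.0091; 0.687 without the 2 farthest). PPO2 also varied with Spn27A (r = 0.797, permutation p = 0.00329, adjusted p = 0.0154; rho = 0.713, adjusted 0.0501; 0.658 without the 2 farthest), whereas PPO1 and Spn27A had r = 0.482 (permutation p = 0.13, adjusted p = 0.228; rho = 0.462, adjusted 0.25). With fon PPO2 had r = 0.754 (permutation p = 0.00627, adjusted p = 0.0195, rho = 0.769, adjusted 0.0337, and 0.655 without the 2 farthest). With MP1 PPO2 had r = 0.744 (permutation p = 0.0104, adjusted p = 0.0291, rho = 0.741, adjusted 0.0365, and 0.632 without the 2 farthest). PPO1 had r = 0.325 with fon and 0.525 with MP1 (permutation adjusted p = 0.425 and 0.194). PPO1 stood apart in tau E and control F, where it was lower than its group mean by −0.85 and −0.86 on the log2 scale and PPO2 by −0.25 and −0.48. Hml had negative r with fon, Hayan, Spn27A, MP1 and PPO2 (from −0.3 to −0.572), none with an adjusted p under 0.05. Within tau libraries these ran from −0.757 to −0.891, and within control libraries from −0.0032 to −0.396. All these correlations share their libraries, so depth and the make-up of the pooled heads are common to both genes of a pair.

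**Figure D4:**
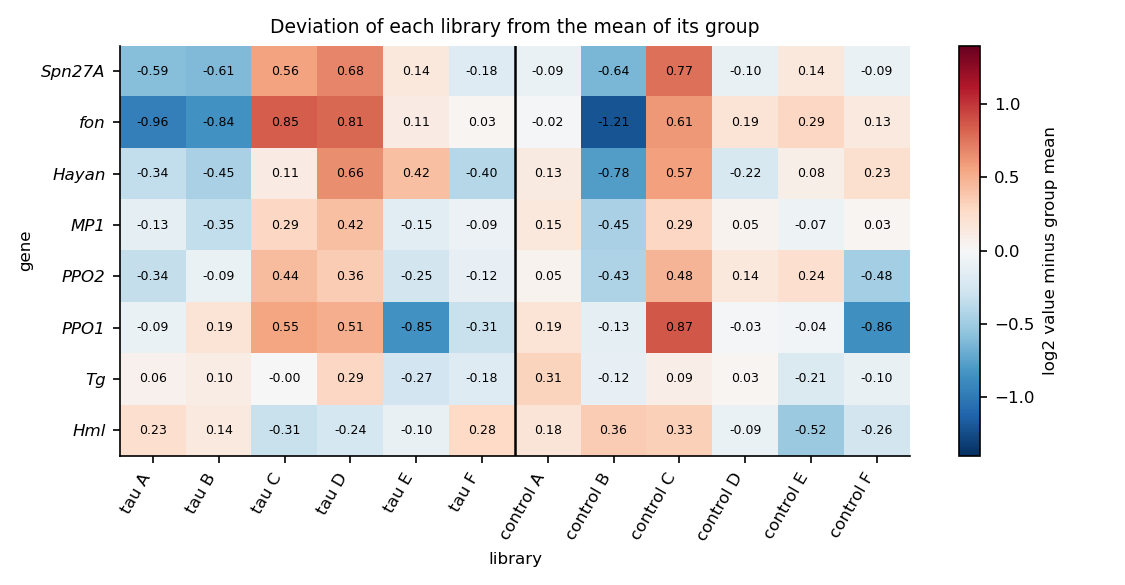
Log2 value minus the mean of the genotype (colour and number in each cell) for the 8 genes (rows) in the 6 tau and 6 control libraries (columns). Spn27A, fon, Hayan and MP1 are low together in tau B and control B (fon at −0.84 and −1.21) and high together in tau D and control C, while Hml (bottom row) is above its mean in control B, at 0.36.

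The genes with the most similar deviations, the first 3 for each member by Pearson r over the 12 libraries, are given as a description. Spn27A was closest to Sp7 (r = 0.983), the melanization protease known as MP2, then to Sac1 (0.981) and Cyp9b2 (0.98). fon was closest to Glg1 (0.99), et (0.983) and Irc (0.982), an immune-regulated catalase. Hayan was closest to Sec63 (0.959), a gene of protein import into the endoplasmic reticulum, CG7744 (0.953) and Ost48 (0.942). MP1 came next to CG31769 (0.963), Adgf-D (0.95) and GlnRS (0.95). PPO1 was closest to REPTOR-BP (0.925), mRpS23 (0.916) and CG8180 (0.902), and PPO2 to eIF3h (0.93), stwl (0.924) and Tpc1 (0.902). Hml was closest to ND-49 (0.89), Cpr49Ae (0.886) and mago (0.883), and Tg to eIF2alpha (0.873), CG10494 (0.865) and Lint-O (0.818). With 10845 genes to choose from and 12 libraries, high values of r arise easily.

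Other genes of the protease cascade were counted with MP1, Hayan and Spn27A. Of the 13 proteases and serpins tested, MP1 fell, 12 were not called and none rose, and the median log2 fold change was −0.30. Sp7, which acts beside Hayan in the activation of PPO1, had 2260, 2770, 5769, 6162, 4080 and 3272 in tau libraries A to F and 4409, 2813, 7067, 4026, 4582 and 3751 in control libraries A to F. That is the pattern of Spn27A over the libraries, with a log2 fold change of −0.17 ± 0.24 (SE; limma adjusted p = 0.794). psh, a close relative of Hayan that signals to Toll, and modSP, the protease at the head of the Toll cascade, had log2 fold changes of −0.58 ± 0.17 and −0.63 ± 0.18 (SE) and did not pass (limma adjusted p = 0.0668 and 0.0597). Both passed with each library recentred on its median (adjusted p = 0.0426 and 0.0407) and without control B (0.00409 and 0.00591), and modSP without tau D (0.0233). Sp7, psh and modSP were named after their values had been seen, like PPO3, lz, ple, Ddc, yellow-f and apolpp below.

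**Figure D5:**
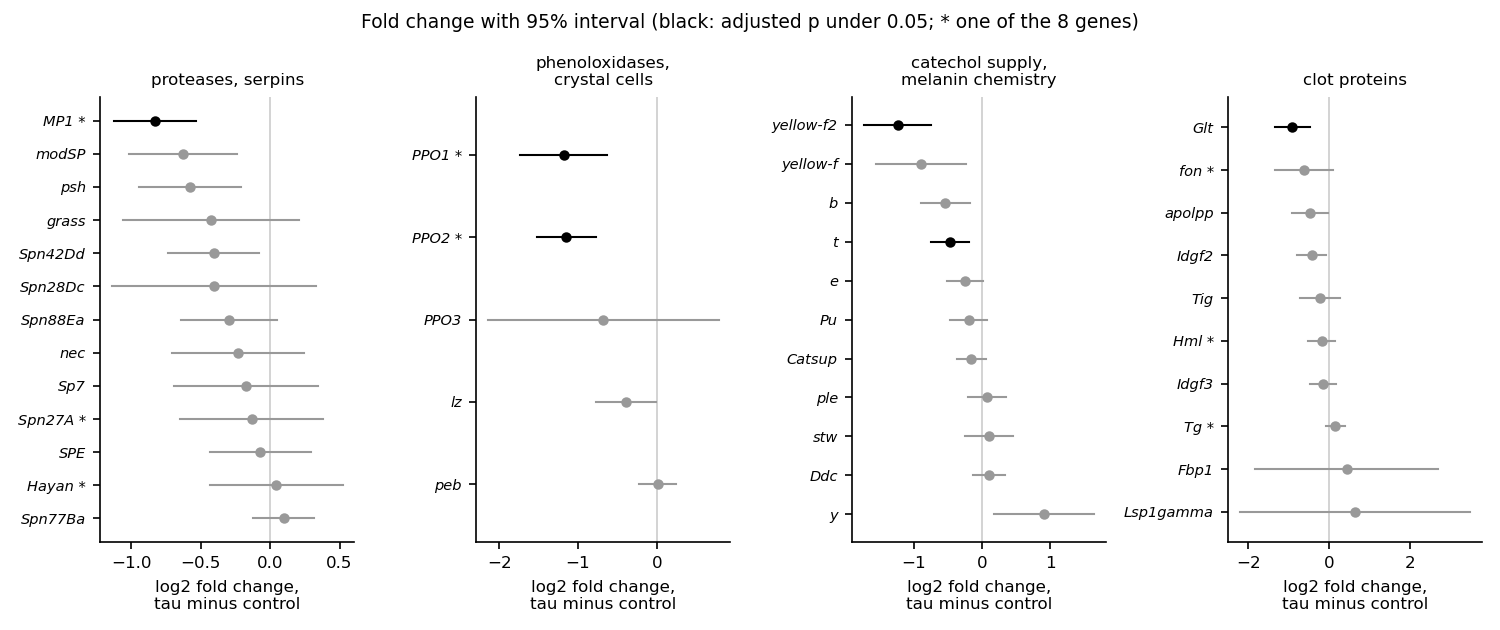
Log2 fold change, tau minus control (horizontal axis), with 95% interval, for the tested genes of the 4 pathway lists; black marks an adjusted p under 0.05 and a star the 8 genes described here. Of the proteases and serpins only MP1 is called, beside PPO1, PPO2, yellow-f2, t and Glt in the other panels, all below 0.

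PPO3, the phenoloxidase of lamellocytes, was near the floor, at 3.20 to 93.7 in tau and 14.6 to 83.5 in control libraries (log2 fold change −0.68 ± 0.69, SE; limma adjusted p = 0.684). lz, the transcription factor that specifies crystal cells and also acts in the eye, had 234 to 451 in tau and 330 to 612 in control libraries. Its log2 fold change was −0.39 ± 0.18 (SE; limma adjusted p = 0.269). All 6 tau libraries lay below the control median of lz, and 5 controls lay above every tau library. Of the 5 genes of the phenoloxidase and crystal cell list, PPO1 and PPO2 fell, and the sum of the other 3 (PPO3, lz and peb) was 1841 to 2307 in tau and 1887 to 2695 in control libraries. The largest part of this sum was peb, at means of 1684 in tau and 1674 in controls, so the sum says little about lz and PPO3.

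In the list of catechol supply and melanin chemistry, 2 of 11 tested genes fell and none rose, with a median log2 fold change of −0.20. yellow-f2, an enzyme that converts dopachrome on the way to melanin, had 1031, 1009, 1966, 2446, 1588 and 1676 in tau libraries A to F and 3338, 2081, 5445, 3865, 3824 and 4155 in control libraries A to F. Only tau D exceeded a control, control B. It fell to 42.3% of the control level (limma adjusted p = 0.00542), a call that ended when tau B and controls E and F were left out (log2 fold change −1.05, adjusted p = 0.0643). Its relative yellow-f had 336 ± 131 in tau and 654 ± 308 in controls (SD, n = 6 each; log2 fold change −0.90 ± 0.31, SE; limma adjusted p = 0.115), and 0.0142 without control B. t, the hydrolase of the pigment and histamine cycle tan, fell by 0.47 ± 0.13 at the edge of the threshold (SE; limma adjusted p = 0.04997), and was lost in 7 of 12 alternatives and without 9 of the 12 single libraries (adjusted p up to 0.293). The enzymes that supply the catechols, tyrosine hydroxylase (ple) and dopa decarboxylase (Ddc), which neurons also use for dopamine, had log2 fold changes of 0.07 ± 0.13 and 0.10 ± 0.11 (SE; limma adjusted p = 0.846 and 0.711).

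Of 10 tested genes of the clot list, only Glt changed, downwards, and the median log2 fold change was −0.21. Glt, the secreted glycoprotein glutactin, had 46401 ± 12962 in tau and 86222 ± 19134 in control heads (SD, n = 6 each; log2 fold change −0.91 ± 0.20, SE; limma adjusted p = 0.0137). With the yolk proteins in the fit the log2 fold change was as large, at −0.91, but did not pass (adjusted p = 0.117). Leaving out tau B and controls E and F gave −0.79 (adjusted p = 0.0834). apolpp, the main lipoprotein of the haemolymph, had a log2 fold change of −0.48 ± 0.21 (SE; limma adjusted p = 0.231).

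Among the lists of cell type markers, that of plasmatocytes had the most genes called lower. Of 12 tested plasmatocyte markers 7 fell, including eater, Sr-CI, Ppn and vkg, and all 12 were below 0. The median log2 fold change was −0.64. Over all tested genes 3.13% were called lower. With the yolk proteins in the fit 3 of the 12 passed and the median was −0.57, while the count called lower over all genes went from 339 to 92. When tau B and controls E and F were left out 4 passed and the median was −0.59, with 170 called lower over all genes. The sum of the 11 without Hml was 41997 to 61248 in tau and 67958 to 104207 in control libraries, and the marker He was listed at 0 in tau E. Ppn made up the largest part of this sum (means of 21726 in tau and 38525 in control libraries). Next were Col4a1 (8996 and 15156) and vkg (5513 and 8314). Hml, which is on this list, was not among those called lower, nor were NimC1, crq, He and ush. Whether the RNA of these markers came from plasmatocytes alone was not tested. Of 10 tested fat body markers none was called and 5 were below 0, with a median log2 fold change of −0.003 and a range from −1.49 to 0.64. This median moved with the treatment of low values. With a mean of at least 100, 7 were tested, 1 was called higher and the median was −0.36. When tau B and controls E and F were left out, 9 were tested, none was called and the median was −0.33. The summed values of the fat body markers, of which apolpp made up the largest part, were 356499 to 560266 in tau and 477258 to 783558 in controls. Of 4 female fat body markers fit fell, and the sum ran from 270304 to 1078038 in tau and from 457838 to 1972108 in controls. Of 6 lamellocyte markers none was called. Neuron and glia markers were present in all libraries (sum of 7 genes 115192 to 136171 in tau, 105071 to 160569 in controls) and none of the 7 was called, nor any of 4 photoreceptor markers. The part of cell numbers and of the sexes of the pooled flies in the falls of PPO1, PPO2 and MP1 was not tested. The fit with yolk proteins cannot decide it, because that covariate is not separate from genotype. All 6 tau libraries lay below the control median for each of Yp1, Yp2 and Yp3. That fit also called fewer genes of any kind, 146 against 567.

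Toll effector genes went the other way, with 5 of 9 higher in tau and none lower, against 2.10% higher over all tested genes. Drs rose 11.8-fold, BomBc1 11-fold, BomS3 3.44-fold and BomBc3 3.26-fold (limma adjusted p from 0.00178 to 0.00609). With the yolk proteins in the fit 1 of the 9 was called, while the median log2 fold change of the list was 1.41, against 1.71 without them. The count called higher over all genes went from 228 to 54 in the same fit. None of 5 Toll recognition and receptor genes was called.

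Estimated depth was 25.7 to 41.5 M read pairs in tau and 20.1 to 33.2 M in control libraries. Tau B, control E and control F carried 24.7, 8.88 and 6.31 estimated reads per kb over genes with almost no reads in most samples, against 0.962 to 2.71 elsewhere. Without these 3 libraries PPO1, PPO2 and MP1 remained called, with log2 fold changes of −1.45, −1.19 and −0.77 (limma adjusted p = 0.0193, 0.0102 and 0.0309).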

How the data were processed

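The deposited table holds a normalised signal per gene and library, which the authors made with DESeq2 1.24 from Salmon 0.13.1 quantification of Trimmomatic 0.36-trimmed reads (build dm6), per the submitters' processing notes. Per the file headers, 2 lanes were joined for each library. For the annotation, the step to genes and the use of strand, no source used here gives the setting. By library, 22.7% to 60.5% of low values lay within 0.05 of a whole multiple of the estimated value of 1 read pair. Whole counts were therefore not recovered, no count model was used, and depth is an estimate.

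Genes with a mean of at least 10 were tested with limma 3.58.1 in R 4.3.3 (log2(value + 1), eBayes with variance trend, no covariate, two-sided). The fit was tested on simulated data. Exact and 100000-fold permutation tests were run in Python 3.11.15. Positions and exon lengths come from the Ensembl annotation of BDGP6 (dm6 coordinates). Symbols matched for 13433 rows. The limma p-values set the difference between genotypes against the spread between pools, with variances moderated over all tested genes.

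The members, gene lists and tests were chosen with earlier results of these data known. Named genes were the members, up to 4 called genes per list by smallest p, and the 3 genes most like each member. Same-letter libraries did not pair (r of deviations from −0.226 to 0.137). No sequences are shown.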

Additional observations from a re-analysis of the deposited data

Results flagged for a closer look

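In 4 cases, among 58 groups of 6 libraries examined, a single library stood far from the other 5 of its genotype. For normally spread values chance gives about 1 in 20 groups, so a few such cases are expected among 58. The crystal cell gene lz was lowest in tau D, at 234 against 373 to 451 in the other tau libraries. The female fat body gene fit was highest in control C, at 10692 against 1820 to 3909 in the other controls. Control E was highest for the Toll effectors BomBc1 (1452 against 143 to 218) and BomS3 (43982 against 12612 to 23366). None of the 8 melanization and clotting genes had such a library.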

How the results depend on the processing

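PPO2 and MP1 were called under all 12 alternatives and without any single library (adjusted p up to 0.0394), and the number of members called was 3 without each single library. PPO1 kept its direction but not its call when the variance trend was dropped (−1.18) or the yolk proteins entered the fit (−0.97). Members that were not called changed sign as follows: Hml to 0.0903 and Hayan to −0.0647 with the yolk protein covariate, and Spn27A to 0.10 with array weights and 0.0022 when tau B and controls E and F were left out. When tau B and controls E and F were left out Hml moved the other way, to −0.41 (limma adjusted p = 0.167), against −0.19 in the main fit. Without single libraries Hayan ran from −0.11 to 0.16 and Spn27A from −0.27 to 0.021. Of other genes, Sp7 was 0.045 and ple −0.0026 with array weights, Ddc was −0.0158 without the 3 libraries, and leaving out single libraries took ple from −0.0418 (tau F) to 0.1442 (tau C). The log2 ratio PPO1/PPO2 differed by −0.1137 to 0.0822 without single libraries. The cause of these changes was not tested.

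Of all genes, 567 were called (339 lower, 228 higher). There were 369 (212 lower) without the variance trend, 876 (424 higher) with array weights, 146 (92 lower, 54 higher) with the yolk protein covariate and 308 (170 lower, 138 higher) without the 3 libraries. Rescaling to equal totals put the median over all genes at 0.11 on the log2 scale, against 0.008, and gave 261 lower and 525 higher, with PPO1, PPO2 and MP1 still called. Without single libraries the counts ran from 376 (control A) to 674 (control B), from 222 to 446 lower and from 147 (tau C) to 242 higher. With the replicate block 699 genes were called and fon passed (−0.63), as did psh, modSP and yellow-f. Tau A and control A matched best by letter, as did the libraries lettered C, and the other 4 letters did not. Depth limits mainly low genes such as PPO3, which lay near the floor.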

Other observations

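Storage proteins of the fat body, on the marker list but named after their values had been seen, differed widely between pools. An antisense RNA overlaps 84.6% of the exon bases of Lsp2. Lsp2 ran from 612 in tau C to 28988 in tau F, and from 1872 in control D to 109293 in control B. Lsp1beta ran from 452 in tau C to 5041 in tau F, and from 874 in control E to 13232 in control B.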
